A study of Sus scrofa with 9 samples.

Results

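The 9 genes described here make, bind and break down hyaluronan: the synthases HAS1, HAS2 and HAS3, the receptors CD44, LYVE1 and HMMR, the hyaluronidases HYAL1 and HYAL2, and the hyaluronan-modifying secreted protein TNFAIP6. They were taken by symbol from the 19535 gene rows of the count table. HAS2 stands there as SHAS2, the pig symbol that RefSeq pairs with the synonym Has2. The 9 genes were chosen by their measured levels and fold changes between these same groups, so their differences are given as a description, with no p-value. Total RNA came from cultured porcine aortic valvular interstitial cells (PVICs), the fibroblast-like cells of the valve leaflet, of wild type pigs aged 4 to 5 months, after the valve endothelial cells had been scraped from the leaflets. The control group was kept in DMEM for 3 days. The OIM group received osteogenic medium with insulin, ascorbic acid (50 µg/mL) and sodium dihydrogen phosphate (2 mmol/L). The bFGF group received the same medium with basic fibroblast growth factor at 50 ng/mL. Each group had 3 libraries, with 57075793 to 64723837 gene counts in control, 57682710 to 67371523 in OIM and 46773376 to 48270827 in bFGF. Neither the labels nor the methods say that the libraries of a group came from separate animals or cultures, so the spread between them may be technical.

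Hyaluronan is a long, unsulfated sugar chain that is spun out at the cell surface by the HAS enzymes from 2 activated sugars, UDP-glucuronic acid and UDP-N-acetylglucosamine. In the extracellular space it binds proteoglycans such as versican and forms much of the hydrated, compressible layer of heart valve leaflets. Cells bind it through CD44 and related receptors, and hyaluronidases cut it into fragments that are taken up and degraded in lysosomes. These data measure RNA only, not hyaluronan or its chain length.

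Adding bFGF to the osteogenic medium went with 6.63-fold higher HAS2, 7.08-fold higher HAS3, higher CD44, HMMR and HYAL2, and no LYVE1 count in any library. Osteogenic medium alone went with a 1.73-fold higher mean of HAS2, the RNA of the main synthase in these cells. Levels are CPM, counts scaled to the same library size scaled by TMM, a normalization that sets the typical gene to no change. A gene passed both limits when edgeR's Benjamini-Hochberg adjusted p over the 13662 genes tested was at most 0.05 and the log2 fold change was at least 0.5 in size. The fit ran over all genes, and 8 of the 9 genes entered it. HAS1 had too few counts, and LYVE1, with no count in bFGF, entered only through its control and OIM libraries. In bFGF against OIM, 5 of these 8 were past both limits upward and 1, LYVE1, downward, where 17.7% of all genes tested passed upward and 18.4% downward. In bFGF against control the same 5 were past them upward and LYVE1 downward, where the shares of all genes were 18.9% and 20.0%. In OIM against control, HAS2 was past them upward and 0 of the 8 downward (0 also at an unadjusted p of 0.05, with or without the fold limit, and by DESeq2), where 1.49% of all genes passed upward and 0.864% downward. On the log2 scale the 8 genes had a median of 0.19 for OIM against control, 0.91 for bFGF against OIM and 0.90 for bFGF against control, and the medians of all genes tested lay between -0.02 and 0.00. Since the genes were picked from these contrasts, these counts and medians are no test of them, and nothing is read from them. Any pair of these comparisons shares the libraries of a group.

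**Figure D1:**
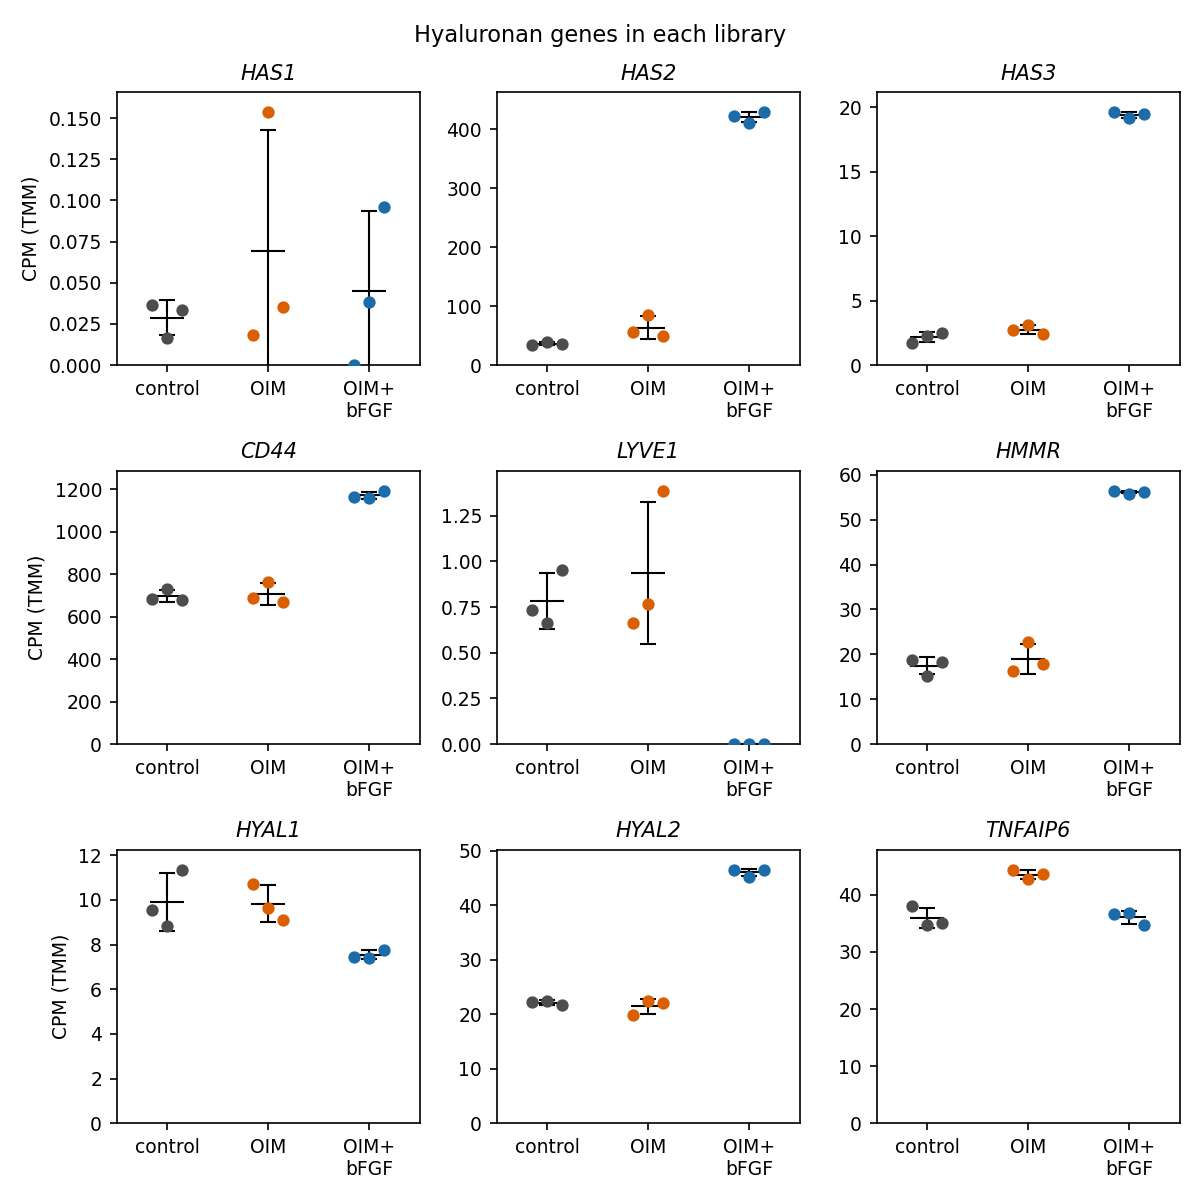
Level of each of the 9 genes in each library, in CPM after TMM scaling, on axes that start at 0. Points are the 3 libraries of a group, the horizontal line is their mean and the bar is 1 SD (bars that would pass below 0 are clipped). The bFGF libraries stand far above the rest for HAS2, HAS3, CD44, HMMR and HYAL2 and at 0 for LYVE1, and OIM replicate 2 has the highest HAS2 of its group.

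OIM replicate 2 stood apart within its group for HAS2, HMMR, HAS1 and genes of mitosis, and results that rest on it are given with and without it. It also stood apart over genes at large. The mean chi-square per gene, a measure of how far the counts of 2 libraries differ, was 19.5 against OIM replicate 1 and against OIM replicate 3. Between replicates 1 and 3 it was 5.92. The fibroblast markers of the cell type, including vimentin, were measured in all libraries (11 of 11 above the floor), with a summed level of 68900 to 77400 CPM in control and OIM and 39820 to 40270 CPM in bFGF. Of these 11 markers, 2 rose, 5 fell and 4 passed in neither direction in bFGF against OIM, where 17.7% of all genes passed upward and 18.4% downward. From OIM to bFGF the 2 that rose were VIM (mean 5695 to 9008 CPM) and POSTN (600 to 1645). Those that fell were COL1A1 (25050 to 9886 CPM), COL1A2 (17750 to 8849), COL3A1 (10890 to 6606), ACTA2 (8449 to 738) and DCN (425 to 214). Fewer cells of a kind and less RNA per cell cannot be told apart in these bulk samples.

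Of the synthases, HAS2 carried nearly all of the RNA. HAS2 (Sscrofa11.1 chromosome 4, 17583154 to 17613524, plus strand) had 1838, 2402 and 2185 counts in the control libraries, 3069, 5534 and 2775 in OIM and 22588, 21355 and 22270 in bFGF. As CPM these were 33.72, 39.63 and 36.58 in control, 56.62, 84.95 and 48.58 in OIM, and 421, 411 and 428 in bFGF. The 3 groups did not overlap, and the bFGF libraries lay closest together relative to their mean. The mean was 36.64 ± 2.95 CPM (SD, n = 3) in control, 63.38 ± 19.1 in OIM and 420.0 ± 9.03 in bFGF. The log2 fold change was 0.79 (SE 0.125) for OIM against control, 2.73 (SE 0.124) for bFGF against OIM and 3.52 (SE 0.129) for bFGF against control, which is 11.5-fold. OIM replicate 2 was 1.61-fold above the mean of the other OIM libraries. Without it the log2 fold change for OIM against control was 0.52, and bFGF was 7.99-fold above OIM.

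HAS3, another synthase of the family, was far lower than HAS2 and was also highest in bFGF. HAS3 (chromosome 6, 17844974 to 17870331, minus strand) had 94, 137 and 149 counts in control, 148, 202 and 137 in OIM and 1052, 998 and 1011 in bFGF. Its mean was 2.16 ± 0.395 CPM in control, 2.74 ± 0.351 in OIM and 19.42 ± 0.218 in bFGF (SD, n = 3 each). The control and OIM libraries overlapped, and every bFGF library was above all of them. The log2 fold change was 0.34 (SE 0.143), 2.82 (SE 0.127) and 3.16 (SE 0.13) for OIM against control, bFGF against OIM and bFGF against control. A stretch of 282 exonic bases of HAS3, 3.06% of its exons, also lies in TANGO6 on the same strand, and TANGO6 was 1.62-fold higher in bFGF than in OIM (adjusted p = 7.76e-07).

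HAS1 was close to absent, with 2, 1 and 2 counts in control, 1, 10 and 2 in OIM and 0, 2 and 5 in bFGF. Its groups overlapped, the highest library was OIM replicate 2, and no fold change is given. Divided by exon length, HAS2 made up 97.7% to 98.6% of the 3 synthases' summed level in each of the 9 libraries. The sum itself was 11.6 to 13.6 CPM per kilobase in control, 16.7 to 29.1 in OIM and 140.5 to 146.6 in bFGF. HAS3 made up 1.16% to 2.15% of it, and the ratio of HAS2 to HAS3 per length ran from 45.5 in control replicate 3 to 85.0 in OIM replicate 2, with 66.4 to 68.4 in bFGF.

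**Figure D2:**
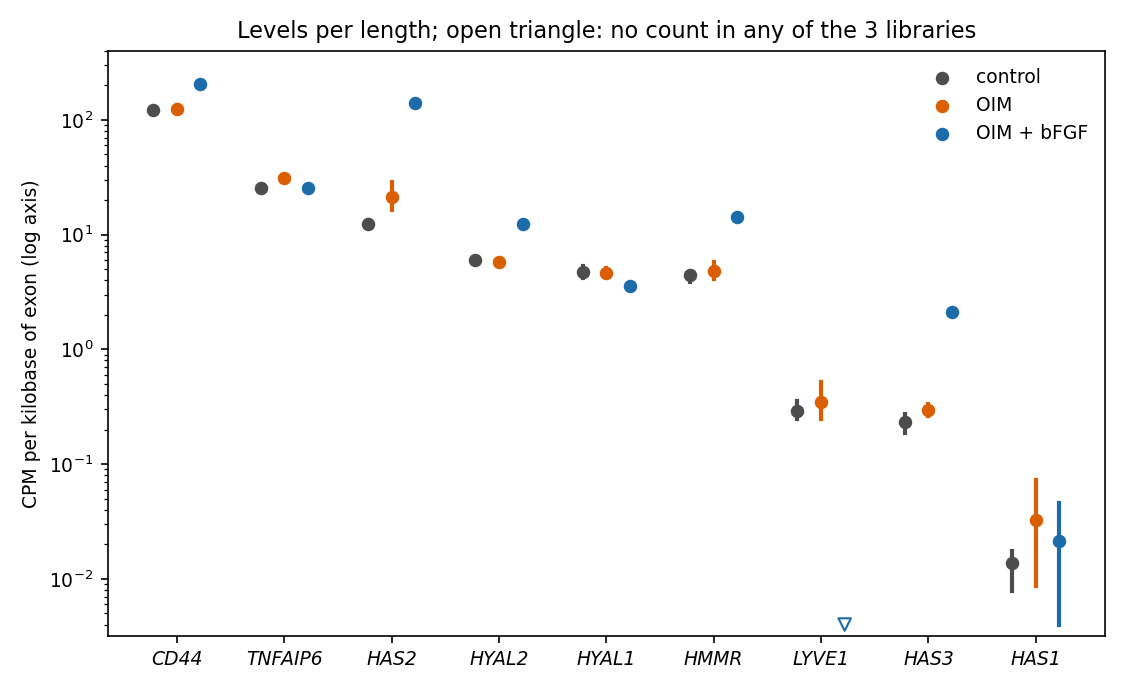
Level of the 9 genes per kilobase of exon, on a log axis, ordered by the control mean. Points are group means and lines run from the lowest to the highest of 3 libraries, to the foot of the axis where a library had no count. HAS2 moves from below TNFAIP6 in control and OIM to above it in bFGF, next to CD44.

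Compared per length, which allows levels of different genes to be set side by side, CD44 was the most abundant of the 9 in each group, at 122.5, 124.4 and 206.0 CPM per kilobase in control, OIM and bFGF. In control TNFAIP6 (25.49), HAS2 (12.35) and HYAL2 (6.01) followed without overlap between neighbours. HYAL1 (4.70) and HMMR (4.41) came next with overlapping libraries, then LYVE1 (0.292) and HAS3 (0.235), which overlapped as well, and HAS1. OIM had the same leading 4, but HMMR overlapped with both HYAL2 and HYAL1, and LYVE1 with HAS3. In bFGF, HAS2 at 141.6 CPM per kilobase was second, ahead of TNFAIP6 (25.57), HMMR (14.19), HYAL2 (12.49), HYAL1 (3.58) and HAS3 (2.11), with no overlap between any of these neighbours. HAS1 and LYVE1 were last.

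Circular RNA and antisense RNA at the HAS2 gene were recorded in separate parts of the same table. A circular RNA forms when the end of an exon is joined backward to an earlier exon start, and reads across that joint identify it. One circle at HAS2 spans 4:17596492-17597118 on the plus strand, exactly exon 2 of 4, whose 627 bases are all coding and hold 37.8% of the coding sequence. Its joint is shown against the ordinary joint of exon 2 with exon 3, because only the letters after the joint tell the circle from the linear RNA. Both are the reference sequence of Sscrofa11.1, 15 bases on each side, with the part after the joint in capitals. In the circle this part is the start of exon 2 itself, where the coding sequence of the gene model begins.
HAS2 exon 2 back-splice joint: gtggattatgtacagATGCATTGTGAGAGG
HAS2 exon 2 to exon 3 joint: gtggattatgtacagGTTTGTGATTCAGAC

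Back-splice reads of the circle numbered 8, 0 and 4 in the control libraries, 0, 0 and 3 in OIM and 13, 12 and 13 in bFGF. All bFGF libraries were above the highest control and OIM library. The circRNA part of the table holds no value of 1, so a 0 may stand for a single read. Set against the linear gene, the circle had 1.87 back-splice reads per 1000 HAS2 counts in control (95% exact Clopper-Pearson interval 0.965 to 3.26, over 12 reads), 0.264 in OIM (0.0544 to 0.770, 3 reads) and 0.574 in bFGF (0.406 to 0.788, 38 reads). These intervals cover counting error only and pool the libraries of a group, and in control the ratio ranged from 0 to 4.35 between libraries. The antisense RNA LOC106509979 shares 364 exonic bases with HAS2, 12.3% of its exons, on the opposite strand. It moved the other way: its estimated counts were 66.0, 72.0 and 45.8 in control, 67.8, 62.0 and 69.9 in OIM and 20.2, 34.4 and 20.4 in bFGF. Scaled like CPM these came to 1.06 ± 0.250, 1.14 ± 0.165 and 0.477 ± 0.160 (SD, n = 3), with each bFGF library below the rest. The number of HAS2 counts per antisense count was 27.9 to 47.8 in control, 39.7 to 89.2 in OIM and 621 to 1119 in bFGF. The sources do not state whether counting used strand, and without strand, reads from the shared bases cannot be assigned to one of the pair. No test was made of the circle or the antisense RNA.

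**Figure D3:**
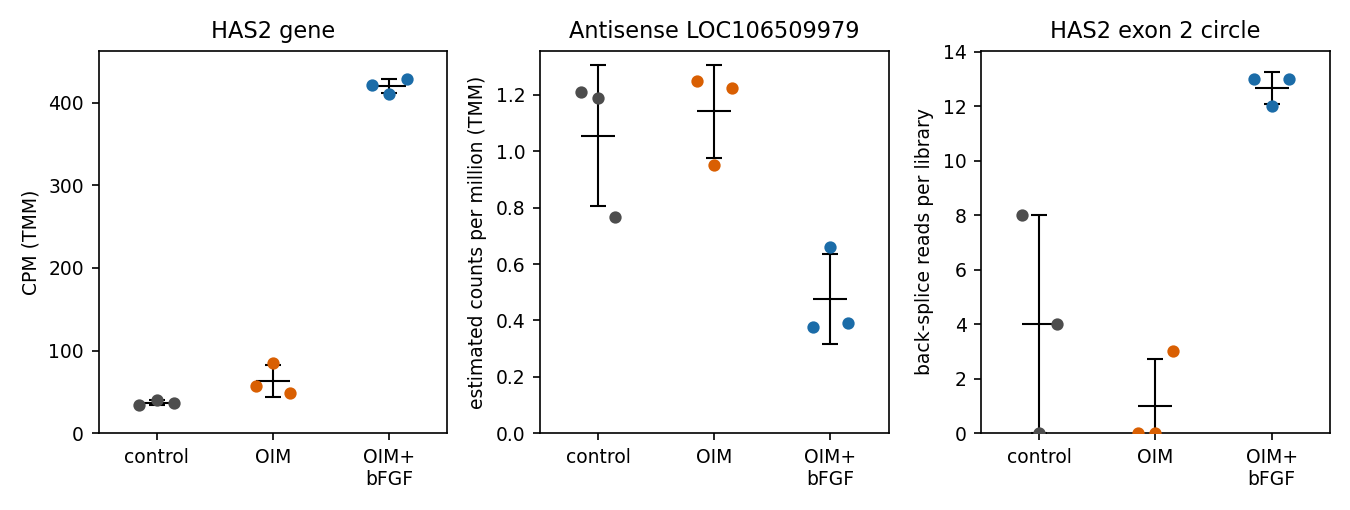
HAS2 gene level (CPM), antisense LOC106509979 (estimated counts, scaled like CPM) and back-splice reads of the HAS2 exon 2 circle, per library, on axes that start at 0. Points are libraries, lines are means and bars are 1 SD. The gene and the circle are highest in the 3 bFGF libraries, and the antisense RNA is lowest there.

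Among the receptors, CD44, the main cell surface receptor for hyaluronan (chromosome 2, 25788699 to 25884209, minus strand), had 37100, 44110 and 40609 counts in control, 37349, 49784 and 38103 in OIM and 62446, 60217 and 61834 in bFGF. Its mean was 696.1 ± 27.4 CPM in control, 706.8 ± 50.9 in OIM and 1170 ± 16.9 in bFGF (SD, n = 3). Control and OIM overlapped and all bFGF libraries were above both. The log2 fold change was 0.73 (SE 0.0434) for bFGF against OIM and 0.75 (SE 0.0434) for bFGF against control. For OIM against control it was 0.02 (SE 0.0433), and it became -0.04 without OIM replicate 2. The annotation has 12 CD44 transcripts, which a count per gene does not separate.

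HMMR (chromosome 16, 60290684 to 60332411, minus strand) encodes a hyaluronan-binding protein that also serves at the mitotic spindle. It had 1024, 925 and 1089 counts in control, 878, 1477 and 1026 in OIM and 3021, 2904 and 2925 in bFGF. The means were 17.43 ± 1.90 CPM in control, 18.94 ± 3.35 in OIM and 56.14 ± 0.279 in bFGF (SD, n = 3), and only bFGF stood clear of the other groups. The log2 fold change was 1.56 (SE 0.0938) for bFGF against OIM and 1.69 (SE 0.0946) for bFGF against control. For OIM against control it was 0.13 (SE 0.0967), and -0.03 without OIM replicate 2, whose 22.67 CPM was 1.33-fold above the mean of the other OIM libraries. NUDCD2 on the opposite strand shares 272 exonic bases with HMMR, 6.88% of its exons, and was 1.42-fold higher in bFGF than in OIM (adjusted p = 0.000392).

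Genes of mitosis moved with HMMR. All 20 of a list of mitotic genes rose in bFGF against OIM, by 1.73 in the median on the log2 scale, beside 17.7% of all genes. Of its most abundant genes, TOP2A, which untangles DNA, rose from 130 ± 22.2 to 419 ± 7.29 CPM (adjusted p = 6.07e-14), the proliferation marker MKI67 from 102 ± 25.6 to 387 ± 9.0 CPM (adjusted p = 1.17e-12) and the kinetochore gene CENPF from 105 ± 19.8 to 360 ± 6.75 CPM (adjusted p = 1.67e-13). In OIM against control 0 of the 20 passed both limits by edgeR or DESeq2 and 0 did at an unadjusted p of 0.05 with the fold limit, beside 1.49% of all genes upward and 0.864% downward. All 20 estimates were nevertheless above 0 (median 0.23). With no fold limit, 9 were higher at an adjusted p of 0.05 and 15 at an unadjusted p of 0.05 by edgeR, and 0 were lower. The share of all genes under these looser rules is not given here. Without OIM replicate 2, an alternative chosen after seeing the data, 18 of the 20 were above 0 (median 0.09), and 4 had an adjusted p of at most 0.05 with no fold limit. In bFGF against OIM all 20 were again past both limits (median 1.88). With all libraries, the HMMR log2 fold change of 1.56 for bFGF against OIM lay below the list's median of 1.73. The part of cell division in the HMMR level was not tested.

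LYVE1 (chromosome 2, 48937357 to 48954206, plus strand), the hyaluronan receptor of lymphatic endothelium and some macrophages, was a low gene that was lost from view with bFGF. It had 40, 40 and 57 counts in control, 36, 50 and 79 in OIM and 0, 0 and 0 in bFGF. The means were 0.783 ± 0.153 CPM in control and 0.938 ± 0.389 in OIM (SD, n = 3), and these groups overlapped. Taking 3 counts per library as the most that a count of 0 allows, or 0.0571 CPM, LYVE1 in bFGF was at least 16.4-fold lower than in OIM and at least 13.7-fold lower than in control. The log2 fold change for OIM against control was 0.26 (SE 0.407) and became -0.13 without OIM replicate 3.

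Other markers of the cell types that LYVE1 marks were still counted in bFGF. The summed level of 10 endothelial and lymphatic endothelial markers was 116 to 123 CPM in control, 99.8 to 105 in OIM and 65.9 to 69.2 in bFGF. PDPN, which fibroblasts also express, was most of this sum in control and OIM, at 95.7 ± 3.4 and 80.0 ± 3.36 CPM, but had 30.3 ± 1.65 CPM in bFGF. None of the 10 was at 0 in a group, and in bFGF against OIM 6 passed upward and 1 downward, beside 17.7% and 18.4% of all genes. KDR and CLDN5, among these 6, had at most 24 and 17 counts a library outside bFGF and would not have entered the fit without the bFGF libraries, so their calls are no evidence of a rise. PECAM1, an endothelial junction protein, had 12.9 ± 0.906, 11.8 ± 1.06 and 20.7 ± 1.07 CPM in control, OIM and bFGF, and PROX1, the lymphatic transcription factor, 1.72 ± 0.617, 1.36 ± 0.199 and 2.35 ± 0.337 CPM. The sum of 10 macrophage and leukocyte markers was 17.5 to 20.6, 17.7 to 18.9 and 10.7 to 11.8 CPM, mostly CD14, with none at 0 in a group, and 0 of the 9 tested rose (edgeR, DESeq2 and unadjusted p alike) and 2 fell in bFGF against OIM, which is near the 18.4% of all genes that passed downward. Epithelial markers summed to at most 0.220 CPM and cardiac muscle markers to at most 0.670 CPM, with TNNT2 and NPPA at 0. The part of these cells in the LYVE1 counts was not tested.

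The hyaluronidases HYAL1 and HYAL2 are neighbours on the minus strand of chromosome 13 and differed in their course. HYAL2 (32805220 to 32813684), a membrane-anchored enzyme that cuts long hyaluronan at the cell surface, had 1214, 1362 and 1291 counts in control, 1077, 1461 and 1263 in OIM and 2489, 2353 and 2412 in bFGF. Its mean was 22.12 ± 0.449 CPM in control, 21.47 ± 1.39 in OIM and 46.01 ± 0.680 in bFGF (SD, n = 3), with only bFGF apart. The log2 fold change was -0.04 for OIM against control, 1.10 (SE 0.0601) for bFGF against OIM and 1.06 (SE 0.0601) for bFGF against control. HYAL1 (32798135 to 32800705), the lysosomal enzyme, had 520, 534 and 677 counts in control, 581, 629 and 520 in OIM and 399, 386 and 404 in bFGF. The means were 9.89 ± 1.30, 9.83 ± 0.821 and 7.54 ± 0.198 CPM (SD, n = 3). Each bFGF library was below all others, but the log2 fold changes of -0.38 (SE 0.108) against OIM and -0.39 (SE 0.108) against control were under the fold limit. With library totals in place of TMM they were -0.16 and -0.17, while the median of all genes shifted by 0.22.

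Set against each other per length, HYAL2 was 1.09 to 1.46 times HYAL1 in control, 1.06 to 1.39 times in OIM and 3.42 to 3.57 times in bFGF. The 3 genes HYAL3, HYAL1 and HYAL2 lie within 22842 bases, with 1140 bases between HYAL3 and HYAL1 and 4515 between HYAL1 and HYAL2. HYAL3 had 6.02 ± 1.17, 4.97 ± 0.292 and 4.80 ± 0.420 CPM in control, OIM and bFGF, and its log2 fold change for bFGF against OIM was -0.05 (SE 0.144, adjusted p = 0.771). TUSC2, whose exons share 63 bases with HYAL2, had 11.0 and 11.2 CPM in OIM and bFGF (adjusted p = 0.842).

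TNFAIP6 (chromosome 15, 862013 to 881352, minus strand) encodes TSG-6, which transfers the heavy chains of inter-alpha-inhibitor onto hyaluronan and so cross-links it. It had 2069, 2105 and 2099 counts in control, 2402, 2784 and 2489 in OIM and 1962, 1917 and 1805 in bFGF. The means were 35.94 ± 1.76, 43.54 ± 0.790 and 36.05 ± 1.16 CPM (SD, n = 3). Each OIM library was above all control and bFGF libraries, which overlapped with each other. The differences were small, with log2 fold changes of 0.28 (SE 0.0534) for OIM against control, -0.27 (SE 0.0536) for bFGF against OIM and 0.01 (SE 0.054) for bFGF against control. With library totals in place of TMM, the last 2 became -0.05 and 0.23.

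TNFAIP6 is known as a gene induced by inflammatory signals, but a list of inflammatory genes split in its course. Of 10 tested, 5 rose and 3 fell in bFGF against OIM (log2 median 0.12), beside 17.7% and 18.4% of all genes. The 3 genes with the highest mean over all libraries, a mean that the bFGF level itself raises, were the chemokine CCL2, which rose from 723 ± 26.2 to 1531 ± 37.7 CPM (adjusted p = 1.09e-15), the prostaglandin synthase PTGS2 from 256 ± 20.1 to 417 ± 20.2 CPM (adjusted p = 5.82e-11) and the cytokine IL6 from 120 ± 15.1 to 490 ± 17.8 CPM (adjusted p = 4.14e-16). In OIM alone TNFAIP3 and ICAM1 stood above IL6, and both fell with bFGF, from 191 ± 3.76 to 131 ± 7.20 CPM (adjusted p = 7.8e-10) and from 175 ± 2.07 to 109 ± 7.73 CPM (adjusted p = 4.16e-11). In OIM against control 0 of 10 passed both limits by edgeR or DESeq2 (1, IL1B, at an unadjusted p of 0.05 with the fold limit), and 1, IL1B, was past both limits downward without OIM replicate 2. With no fold limit, 1 was higher and 2 were lower at an adjusted p of 0.05.

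A list of 42 partner genes beside the 9 was tested over all genes, and 33 had enough counts. They have a part in the supply, binding or breakdown of hyaluronan, some only through another protein. The others, such as STAB2, SPAM1, BCAN and NCAN, had few or no counts. In OIM against control 2 of the 33 rose and 0 fell (0 by DESeq2 and at an unadjusted p of 0.05 with the fold limit), beside 1.49% and 0.864% of all genes. In bFGF against OIM 7 passed upward and 12 downward (log2 median -0.19), where 17.7% and 18.4% of all genes did. Against control 7 passed upward and 13 downward (log2 median -0.31), where 18.9% and 20.0% of all genes did. The 7 in each comparison include HYAL4. The upward counts were close to the share of all genes, and the downward counts were above it, a difference that was not tested.

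Among the 7 genes of sugar nucleotide supply, 2 rose and 2 fell in bFGF against OIM, beside 17.7% and 18.4% of all genes. UGDH, which makes UDP-glucuronic acid, was at 170 ± 6.42 CPM in control, 182 ± 4.89 in OIM and 468 ± 6.26 in bFGF, a log2 fold change of 1.36 (SE 0.0372, adjusted p = 6.1e-17) for bFGF against OIM. UAP1, which makes UDP-N-acetylglucosamine, rose from 104 ± 5.99 to 264 ± 11.3 CPM (adjusted p = 2.02e-15). UGP2, which supplies the UDP-glucose that UGDH uses, fell from 270 ± 5.50 to 146 ± 4.05 CPM (adjusted p = 5.6e-14). GFPT2, an entry enzyme of the hexosamine pathway, fell from 35.4 ± 1.57 to 18.7 ± 0.731 CPM (adjusted p = 2.71e-11). The other entry enzyme GFPT1 had a log2 fold change of -0.45 (SE 0.0353), under the fold limit.

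Of 7 tested genes for other degrading enzymes, 2 passed upward and 2 downward in bFGF against OIM, beside 17.7% and 18.4% of all genes. CEMIP, a secreted hyaluronan-binding protein needed for its breakdown by fibroblasts, fell from 318 ± 17.4 to 38.4 ± 1.84 CPM (log2 fold change -3.05, SE 0.0479, adjusted p = 4.29e-20). CEMIP2, listed under its older symbol TMEM2 and related to it, rose from 109 ± 9.64 to 201 ± 10.7 CPM (adjusted p = 1.04e-11). HEXA, a lysosomal hexosaminidase subunit, fell from 165 ± 5.54 to 114 ± 1.93 CPM with a log2 fold change of -0.53 (adjusted p = 1.53e-10), and of -0.31 with library totals. HYAL4 is among the 2 that passed upward, on 9 to 25 counts a library in bFGF against 0 to 9 in OIM and 3 to 6 in control. It would not have entered the fit without the libraries of the group where it was high, so its call is no evidence of a rise.

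Of the 9 tested genes listed as matrix partners of hyaluronan, not all of which encode proteins that bind it themselves, 6 fell and 2 rose in bFGF against OIM, beside 18.4% and 17.7% of all genes. Against control 7 fell and 2 rose, beside 20.0% and 18.9%. Versican (VCAN), the large hyaluronan-binding proteoglycan of valves, was at 4984 ± 211 CPM in control, 5019 ± 239 in OIM and 2515 ± 26.7 in bFGF (log2 fold change against OIM -0.997, SE 0.0375, adjusted p = 7.27e-15). Aggrecan (ACAN), its cartilage relative, rose from 32.6 ± 1.33 in control to 57.5 ± 11.8 CPM in OIM (log2 fold change 0.82, SE 0.111, adjusted p = 3.56e-05) and was at 10.7 ± 1.58 CPM in bFGF (adjusted p = 6.3e-13 against OIM). ITIH4, of the inter-alpha-inhibitor heavy chain family, rose from 19.2 ± 3.69 to 42.8 ± 5.16 CPM with OIM (log2 fold change 1.15, SE 0.105, adjusted p = 3.25e-07) and was at 2.89 ± 0.207 CPM in bFGF (adjusted p = 1.17e-15 against OIM). These were the only partner genes that passed both limits in OIM against control.

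ITIH5 of the same family fell by 1.51 on the log2 scale in bFGF against OIM (adjusted p = 4.64e-11), and PTX3, which joins TSG-6 and heavy chains in hyaluronan networks, fell by 1.66 (adjusted p = 3.85e-12). ITIH2 fell by 1.04 (adjusted p = 0.0417) on 13 to 55 counts a library, and leaving out any OIM library, control replicate 2 or bFGF replicate 2 or 3 ended that call, as did library totals. Against control its call ended with library totals and without control replicate 2 or 3 or bFGF replicate 2 or 3. The link proteins, which fix proteoglycans to hyaluronan, went both ways. HAPLN1 rose from 6.98 ± 1.48 to 19.0 ± 0.558 CPM (adjusted p = 7.95e-10) and HAPLN3 from 11.2 ± 0.530 to 18.8 ± 0.625 CPM (adjusted p = 5.09e-07). HAPLN4 passed both limits only against control (log2 fold change -0.55, adjusted p = 7.19e-08), and was -0.47 without control replicate 2 and -0.32 with library totals.

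Of 4 other receptors tested, LAYN, a membrane hyaluronan receptor, rose from 0.985 ± 0.316 to 3.47 ± 0.563 CPM in bFGF against OIM (adjusted p = 2.75e-05). TLR2, an innate immune receptor, fell from 19.8 ± 0.0646 to 6.71 ± 0.464 CPM (adjusted p = 6.16e-13), and the scavenger receptor STAB1 from 5.27 ± 0.472 to 3.37 ± 0.0840 CPM (adjusted p = 0.00067, and log2 fold change -0.43 with library totals). Of 6 genes that tie CD44 to the cytoskeleton or shed it (EZR, RDX, MSN, MMP14, ADAM10 and ADAM17), 0 passed both limits in any comparison by edgeR or DESeq2, nor at an unadjusted p of 0.05 with the fold limit. Among all genes 17.7% and 18.4% passed both limits in bFGF against OIM, 18.9% and 20.0% in bFGF against control, and 1.49% and 0.864% in OIM against control, upward and downward. With no fold limit, an adjusted p of at most 0.05 was reached by 4 of the 6 upward and 2 downward in bFGF against OIM. Against control these were 3 and 3, and in OIM against control 0 and 1. Their differences were thus under the fold limit rather than absent. The share of all genes with no fold limit is not given here.

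**Figure D4:**
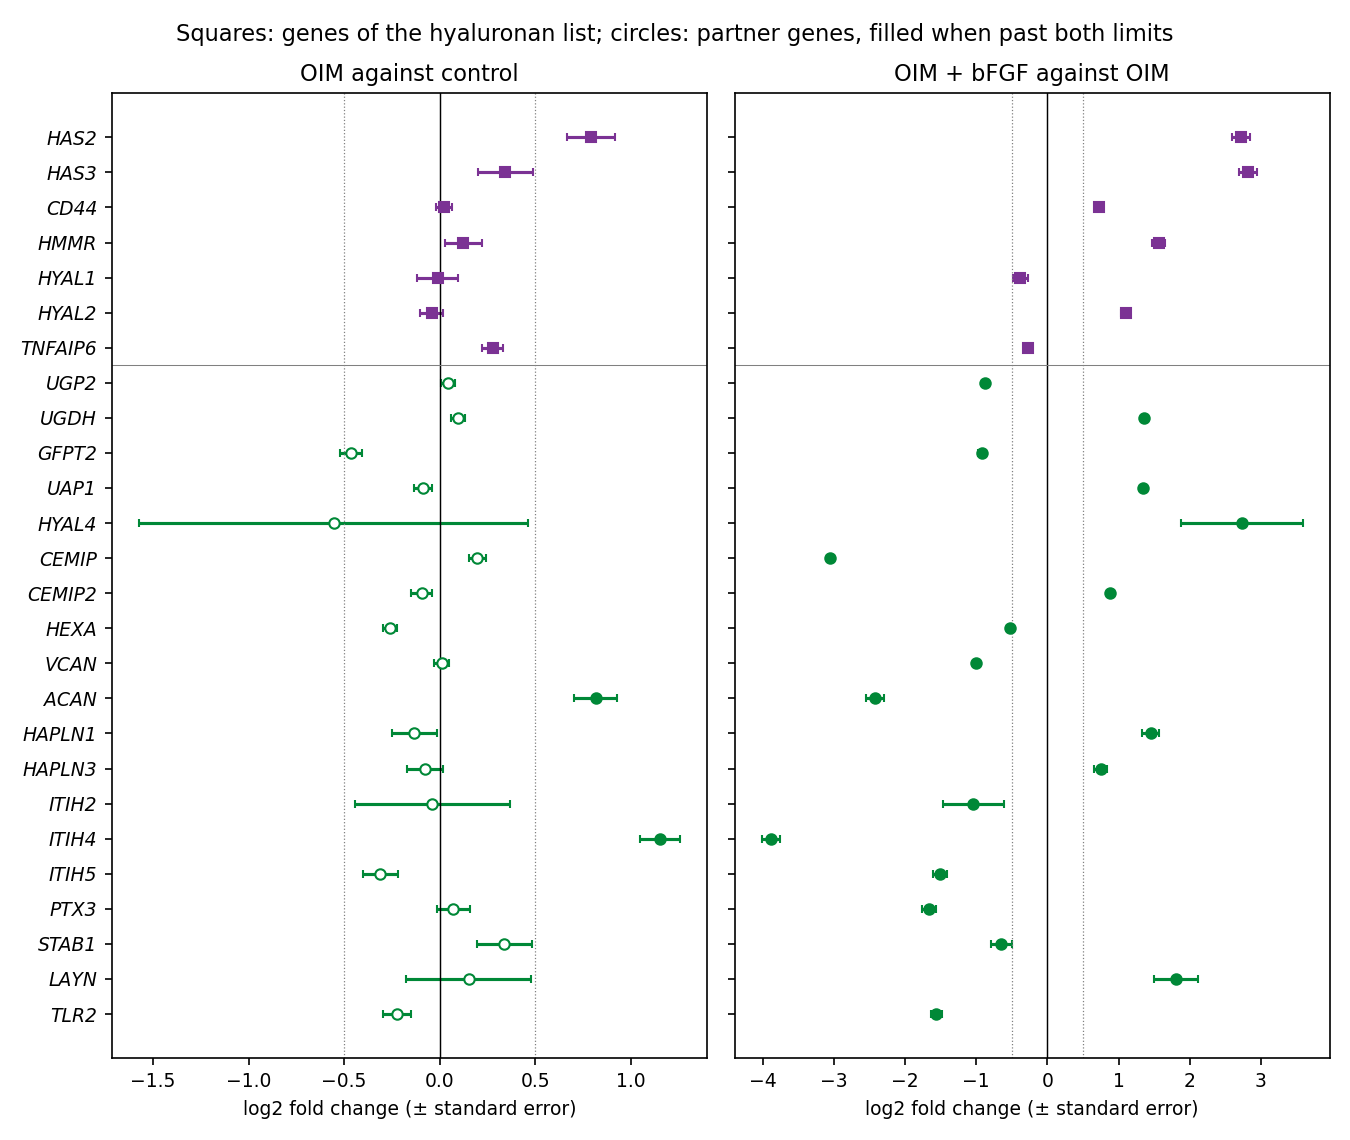
Log2 fold change with its standard error for 7 genes of the hyaluronan list (squares) and the partner genes that passed both limits in a comparison shown here (circles), for OIM against control and for OIM with bFGF against OIM. Filled circles passed both limits, squares are filled throughout, and dotted lines mark the fold limit of 0.5. HAS1 and LYVE1 are left out because of their counts of 0 to 10 and of 0 in bFGF. The horizontal axes of the panels differ, and ACAN and ITIH4 are the filled circles for OIM against control.

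The genes of all those tested whose course over the 9 libraries was most like that of a hyaluronan gene were found by the root mean square (RMS) difference of centred log2 CPM, a likeness that says nothing of shared control. For HAS2 these were NLRP3 (RMS 0.140), ADGRL3 (0.180) and HAS3 (0.235), and for HAS3 they were NLRP3 (0.141), CDCA7 (0.164) and NES (0.182). NLRP3, the inflammasome sensor, had 2.65, 3.93 and 28.3 CPM in control, OIM and bFGF. CD44 lay closest to RGL2 (0.0236), IL1R1 (0.0382) and ABCF2 (0.0385). Among those closest to HMMR were RCC1 (0.0543) and HMGB2 (0.0622), genes of spindle assembly and chromatin. Among those closest to HYAL2 were LRRK2 (0.0236) and SLC25A5 (0.0488), and among those closest to HYAL1 were GPATCH2 (0.0547) and TMCO1 (0.0783). TNFAIP6 was closest to FAM13B (0.0445), PANK3 (0.0447) and MINDY3 (0.0461). LYVE1, whose log values in bFGF are set by the prior count, had no near neighbour, the nearest being TNFSF10 (0.359), CACNA1H (0.369) and CADM4 (0.390).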

How the data were processed

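The 9 libraries (control, OIM and bFGF, 3 each) were grouped by the labels. The authors deposited 1 table that was not normalized: whole-number counts for 19535 genes, and for 9888 non-coding transcripts estimated counts, of which 44.6% are not whole numbers, and read counts of 6179 circRNAs. The sources disagree on how it was made. The labels name a stranded total RNA kit with Ribo-Zero depletion, Trimmomatic, HISAT2, StringTie, Sscrofa11.1 and 3 days of treatment, and the paper's methods a poly-A kit, Cutadapt, STAR, susScr11 and a shorter time. Poly-A selection would lower circRNA reads. The counting program and its use of strand are not given in the sources used here.

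Gene counts were filtered with filterByExpr, scaled by TMM and fitted in edgeR 4.0.16 (R 4.3.3) with the quasi-likelihood test on 3 groups (6 residual degrees of freedom), adjusted by Benjamini-Hochberg over 13662 genes. DESeq2 1.42.0 was an alternative. The common biological coefficient of variation was 0.0602, and p-values measure only the spread between these libraries. CPM per kilobase used the summed exon length of RefSeq Sscrofa11.1, from which pysam 0.24.0 read the junction sequences. The fit was tested on simulated data. No 2 libraries of a group looked like repeats of 1 library (mean chi-square per gene 4.72 to 19.5).

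The genes, the partner, mitotic, inflammatory and marker lists and the tests were chosen with earlier results of these data known. All 9 genes were named, every partner gene that passed both limits, the 3 most abundant genes of the mitotic and inflammatory lists, and the 3 genes most like each tested gene in RMS difference, except a few genes that are not reported here. Genes named outside this rule were chosen after their values were seen: overlapping genes, HYAL3, GFPT1, IL1B, TNFAIP3, ICAM1, the untested examples, the markers (VIM, POSTN, KDR and CLDN5 among them) and the CD44 linker group. Alternatives were other scalings, filters, fold limits and fits, and leaving out each library.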

Additional observations from a re-analysis of the deposited data

Results flagged for a closer look

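Back-splice reads of the HAS2 exon 2 circle were a signal outside the gene counts, above the control level in each bFGF library. The lowest bFGF library had 0.254 such reads when scaled like CPM by the gene total, and the highest control library had 0.140. Library sizes were lower in bFGF than in the other groups. No test was made on these small numbers.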

How the results depend on the processing

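The counts of calls among the 9 genes and among the partner genes changed by more than 1.5 times only as follows. With no fold limit, 2 genes of the list were higher in OIM than control in place of 1, 3 and 2 lower in bFGF than OIM and control in place of 1, and partner genes numbered 8 lower in OIM against control in place of 0, 12 higher in place of 7 in both bFGF comparisons, and 20 lower in bFGF against control in place of 13. With a log2 limit of 1, HAS2 was lost in OIM against control (0 left), partner genes that rose there became 1, and those that fell with bFGF became 7 in place of 12 and 8 in place of 13. With a filter of at least 1 CPM in 3 libraries LYVE1 was not tested, which left 0 lower genes of the list in both bFGF comparisons. Leaving out single libraries kept the counts of the list at 1 and 0 for OIM against control and at 5 and 1 for each bFGF comparison. Among partner genes, it gave 2 higher and 0 to 1 lower in OIM against control (GFPT2, at -0.50, without OIM replicate 3), 7 higher and 11 to 12 lower in bFGF against OIM, and 6 to 7 higher and 11 to 13 lower in bFGF against control. HYAL4 against control lost its call with no filter beyond 1 count and without control replicate 1 or 3 or bFGF replicate 1 or 3.

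Same-numbered libraries did not deviate together (correlations -0.032 to 0.0035 over genes, and up to 0.0534 between different numbers). The numbers thus gave no sign of pairing, though with 3 libraries a group a weak pairing could be missed. A replicate block gave 1 higher and 0 lower of the list in OIM against control, 5 and 1 in each bFGF comparison, 2 and 0 partner genes in OIM against control, 7 and 11 in bFGF against OIM (ITIH2 lost) and 7 and 13 in bFGF against control. Library totals in place of TMM raised the median log2 fold change of all genes by 0.221 for bFGF against OIM and by 0.224 against control. No gene of the list and no partner gene that passed both limits changed sign under any alternative that tested it. The other named genes were not followed through all alternatives. HAS1, with 0 to 10 counts a library, was below what this depth can compare.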

Other observations

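Back-splice reads were also listed at CD44 and HMMR, in small numbers and with no test. CD44 had 3 circles, 1 with 5 reads in bFGF replicate 2 and the others with 2 and 3 reads in bFGF replicate 3, and each was seen in 1 library only. HMMR had 3 circles with 12, 16 and 3 reads over all libraries, and that of 16 reads was spread over 2 OIM and 2 bFGF libraries. The 3 HMMR circles share 1 end of their span. No HMMR circle had reads in more than 4 of the 9 libraries, against 6 for the HAS2 circle.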
